A study of Mus with 8 samples.

Results

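UDP-glucuronosyltransferases (UGTs) are enzymes of the endoplasmic reticulum that join glucuronic acid, taken from UDP-glucuronic acid, to bilirubin, bile acids, steroids, phenols and drugs, so that these become water-soluble and can leave the body in bile or urine. The liver is their main site. The Ugt1a enzymes come from a single locus in which each gene has a first exon of its own, which sets the substrate, and all share the downstream exons, while the Ugt2 enzymes come from a row of separate, similar genes. Described here are 10 of the 22 genes with a Ugt name among the 54532 genes of a mouse liver RNA-seq table: Ugt1a1, Ugt1a6a, Ugt1a9, Ugt2a3, Ugt2b1, Ugt2b5, Ugt2b34, Ugt2b35, Ugt2b36 and Ugt2b38. They were chosen by gene name with their read counts in the 8 libraries compared below already known, so their group differences are given as a description and support nothing by themselves.

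The libraries fall into 4 of a diet-alcohol group (libraries 35, 45, 65 and 71), labelled as receiving alcohol, a high-fat diet and dextran sulfate sodium (DSS), and 4 of a group labelled DSS alone (libraries 15, 48, 49 and 50). All 8 thus come from mice with colitis, which 2.5% DSS, a polysaccharide that injures the lining of the colon, was used to induce until day 6. After DSS, the design names an arm on purified high-fat feed and an arm on dietary high-fat feed with alcohol; the labels name no feed for the DSS libraries, and strain, age and sex are not labelled. Mice that never had DSS were not analysed here. Alcohol and diet were given together and cannot be told apart. The question was what alcohol with a high-fat diet does to the liver in colitis. Nothing says that each library is a separate animal, so the spread between libraries may in part be technical.

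Total counts ran from 12502300 to 16967839 per library. Mitochondrially encoded genes took 30.2 to 73.0% of them in the diet-alcohol group and 55.8 to 79.1% in the DSS group, which left 3453086 to 10947612 and 2722757 to 6170482 counts to nuclear genes. Diet-alcohol library 35 stood apart: it listed 784 genes at 1 to 9 counts where the other 7 listed 4319 to 4987, and its median correlation with the others over log2 CPM was 0.852, against 0.913 to 0.940. Values are therefore also given without it. In bulk liver, fewer cells of a type and less RNA per cell cannot be told apart.

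Markers of liver cell types also differed between the groups. Of 7 hepatocyte markers, 3 had a higher mean in the diet-alcohol group; the 7 summed to 29645 to 37625 CPM there and to 42794 to 66700 CPM in the DSS group. This gap came from Alb, the albumin gene, which averaged 18457 and 42304 CPM (diet-alcohol and DSS; edgeR adjusted p = 0.115). Without Alb the other 6 summed to 13844 to 17079 CPM in the diet-alcohol group and 12095 to 16444 CPM in the DSS group, with overlap. Of these 6, Trf (transferrin) and Fgb (fibrinogen beta chain) were higher in every diet-alcohol library (log2 fold changes 0.84 and 1.12, edgeR adjusted p = 0.145 and 0.0938). Ttr, Apoa1 and Serpina1c went the other way (-0.93, -0.62 and -0.21, edgeR adjusted p = 0.466, 0.510 and 0.849). Tat stood at 0.01, and it and these overlapped between the groups. Neutrophil markers summed to 27.0 to 56.2 CPM in the diet-alcohol group and 2.64 to 11.8 CPM in the DSS group, with 5 of 6 higher on average; S100a8, S100a9 and Retnlg rose (log2 fold changes 2.88, 2.56 and 4.25, edgeR adjusted p = 0.0236, 0.0147 and 0.00762). Kupffer cell markers summed to 279 to 594 CPM in the diet-alcohol group and 161 to 259 CPM in the DSS group, again with 5 of 6 higher on average. Of these only Marco, a scavenger receptor, rose (log2 fold change 4.13, edgeR adjusted p = 0.00891). Marco had 96.5, 54.9, 71.5 and 403 CPM in diet-alcohol libraries 35, 45, 65 and 71, and 6.11 to 12.5 CPM in the DSS group. Vsig4, Cd5l, Timd4, Adgre1 and Clec4f, the last lower on average, each overlapped between the groups (edgeR adjusted p of 0.546 or more). Sums of cholangiocyte, sinusoidal endothelium, stellate cell, and B and T cell markers overlapped between the groups. The part of these markers in the UGT values was not tested.

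Kidney and intestine also make UGTs. Of 5 kidney tubule markers, Umod, Kap and Slc22a6 had no count in any library and the sum was at most 0.165 CPM in the diet-alcohol group and 0.298 CPM in the DSS group. Of 6 intestinal markers, which summed to 35.6 to 53.1 CPM in the diet-alcohol group and 25.0 to 45.5 CPM in the DSS group, Cdx2 had no count and nearly all of the sum was Fabp2, which liver also expresses. Lgr5 had 139 counts in the diet-alcohol group and 22 in the DSS group without overlap (edgeR adjusted p = 0.200). Vil1 had 40 and 7, Muc2 40 and 15, and Lct 3 and 0. Library 35 held 30 of the 40 Vil1 counts, and library 71 held 39 of the 40 Muc2 counts. These counts are not scaled by depth, and nuclear counts averaged 8020200 in the diet-alcohol group and 4692990 in the DSS group.

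The summed level of the 10 UGT genes was lower in every diet-alcohol library than in any DSS library. Levels in CPM are read counts brought to a common library size with TMM, a trimmed mean of ratios between libraries. The sum was 525, 202, 171 and 307 CPM in diet-alcohol libraries 35, 45, 65 and 71. It was 559, 1231, 1221 and 943 CPM in DSS libraries 15, 48, 49 and 50. The means were 301 ± 160.5 and 988 ± 316 CPM (SD, n = 4 each). The highest diet-alcohol library (35) and the lowest DSS library (15) came close to each other. As a share of nuclear counts, the 10 genes took 0.0447 to 0.130% in the diet-alcohol group and 0.145 to 0.288% in the DSS group.

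Of the 10 genes, 9 passed the filter on low counts, all with negative fold changes; Ugt1a6a did not pass it. At an adjusted p under 0.05 (edgeR quasi-likelihood test, Benjamini-Hochberg over 11729 genes), 4 of the 9 fell, namely Ugt1a9, Ugt2a3, Ugt2b1 and Ugt2b38; 0.674% of all tested genes were called lower. None of the 9 was called higher, with an unadjusted p under 0.05 for 0 in that direction and 0 called higher by DESeq2; 0.588% of all tested genes were called higher. In 5 of the 9 the groups did not overlap, all lower in the diet-alcohol group, as was so for 4.63% of all tested genes, and 4.14% did not overlap in the other direction. The median log2 fold change was -1.74 over the 9 genes and -0.01 over all tested genes, of which 5925 had a negative value. In the authors' deposited table, 6 of the 10 had an adjusted p under 0.05 and a negative log2 fold change, the same 4 with Ugt2b5 and Ugt2b36, where 1.14% of the genes listed with an adjusted p did. These shares are given for scale only, since the genes were chosen on this contrast. DESeq2, as run here, gave the deposited adjusted p for each of the 9 genes, so its calls are not separate from the deposited ones.

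The count of 4 depended on single libraries. It was 7 without library 35, 2 without library 45, and 1 without DSS 48 or without DSS 49. With each library's mitochondrial share in the model as a covariate it was 2, Ugt2a3 and Ugt2b38. Under these settings the number of all genes called, in either direction, moved the same way. It was 148 of 11729 with all libraries, 308 of 12097 without library 35 and 83 of 11958 without library 45. Without DSS 48 it was 58 of 12037, without DSS 49 it was 74 of 12217, and with the covariate it was 55 of 11729. Not every setting went this way. Without DSS 50, 4 of the 9 were still called lower, while all genes called fell to 77 of 12248. Without library 71, 3 of the 9 were called lower, while all genes called were 148 of 11889.

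**Figure D1:**
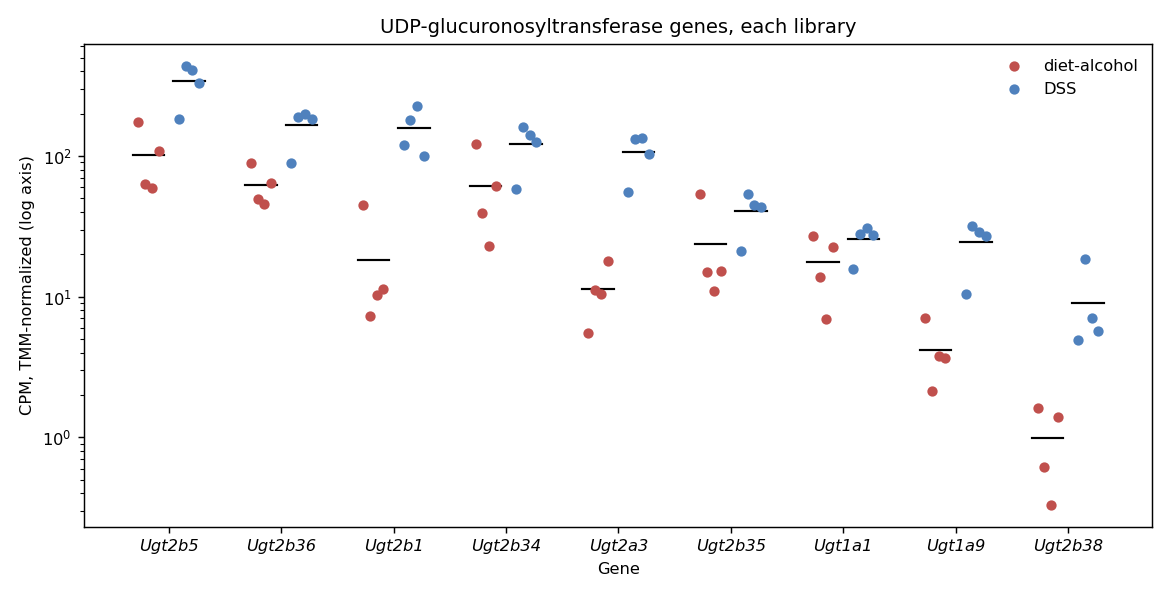
TMM-normalized CPM on a log axis for the 9 UGT genes that passed the filter on low counts, with 1 point per library and a black line at each group's mean (diet-alcohol left, DSS right, n = 4 each). The groups are fully apart for Ugt2b5, Ugt2b1, Ugt2a3, Ugt1a9 and Ugt2b38, and touch or overlap for the other 4 genes.

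The Ugt1a genes lie nested on chromosome 1 (88055388 to 88220002, GRCm38, forward strand). The table lists 9 of them, each overlapping the other 8, and all end within the same stretch. The assignment of reads from the shared exons is not stated, so counts of single Ugt1a genes are uncertain. Ugt1a1 (ENSMUSG00000089960, chromosome 1, 88211959 to 88218997) encodes the enzyme that conjugates bilirubin. It had 27.0, 13.7, 6.96 and 22.5 CPM in diet-alcohol libraries 35, 45, 65 and 71, and 15.7, 28.1, 30.8 and 27.6 CPM in DSS libraries 15, 48, 49 and 50. The groups overlapped, with libraries 35 and 71 inside the DSS range, and the log2 fold change was -0.53 ± 0.38 (SE).

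Ugt1a9 (ENSMUSG00000090175, chromosome 1, 88070800 to 88218997), whose enzyme conjugates phenols, differed more. It had 7.05, 2.14, 3.76 and 3.69 CPM in diet-alcohol libraries 35, 45, 65 and 71, against 10.5, 31.9, 28.9 and 26.8 CPM in DSS libraries 15, 48, 49 and 50. Every diet-alcohol value lay below every DSS value, DSS 15 being the nearest. Ugt1a9 was 5.89-fold lower in the diet-alcohol group, with a log2 fold change of -2.56 ± 0.43 (SE). Its call was lost without DSS 48 or DSS 49 and with the mitochondrial covariate, at log2 fold changes of -2.40, -2.48 and -2.38.

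The ratio of Ugt1a9 to Ugt1a1 counts within a library is free of library scaling. It was 0.261, 0.156, 0.540 and 0.164 in diet-alcohol libraries 35, 45, 65 and 71, and 0.667, 1.14, 0.938 and 0.973 in DSS libraries 15, 48, 49 and 50. Ugt1a9 was thus lower relative to Ugt1a1 in each diet-alcohol library than in any DSS library, though both transcripts end in the same exons. This pair was chosen after the values were seen.

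Ugt1a6a (ENSMUSG00000054545, chromosome 1, 88134809 to 88218997), a gene for an enzyme of small planar phenols, was close to undetected. It had 0, 12, 1 and 1 counts in diet-alcohol libraries 35, 45, 65 and 71, and 4, 3, 3 and 0 counts in DSS libraries 15, 48, 49 and 50. With 14 and 10 counts per group, no difference was detectable at this depth. Its close copy Ugt1a6b had 352 counts in the diet-alcohol group and 477 in the DSS group (log2 fold change -1.39, edgeR adjusted p = 0.223); reads of both could have been split or dropped.

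The Ugt2 genes fill a stretch of 601 kb on chromosome 5 (86889767 to 87490871, GRCm38), with 10 genes in the table, 7 of them described here. Ugt2b enzymes conjugate steroids, bile acids, fatty acids and drugs. Because their sequences are alike, the counts of single genes could have been affected by reads that match several of them. Ugt2a3 (ENSMUSG00000035780, chromosome 5, 87324972 to 87337195) has a human counterpart that conjugates bile acids. It had 5.54, 11.2, 10.5 and 18.0 CPM in diet-alcohol libraries 35, 45, 65 and 71, and 55.5, 133, 134 and 103 CPM in DSS libraries 15, 48, 49 and 50. The highest diet-alcohol library was well under the lowest DSS library. Ugt2a3 was 9.39-fold lower (log2 fold change -3.23 ± 0.39, SE), and it was the only one of the 9 whose call held under all 14 alternatives that gave it a value, at log2 fold changes from -3.557 to -3.002.

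Ugt2b1 (ENSMUSG00000035836, chromosome 5, 86916638 to 86926530) had 44.5, 7.24, 10.3 and 11.3 CPM in diet-alcohol libraries 35, 45, 65 and 71. It had 120.3, 180.2, 228 and 99.2 CPM in DSS libraries 15, 48, 49 and 50. The groups did not overlap, and library 35 stood far above the other 3 of its group. The fall was 8.55-fold (log2 fold change -3.10 ± 0.56, SE), with a log2 fold change of -4.03 without library 35. Its call was lost without diet-alcohol 45, 65 or 71, without DSS 48 or 49, with no filter on low counts, and with the mitochondrial covariate, at log2 fold changes of -3.29 to -2.83.

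Ugt2b38 (ENSMUSG00000061906, chromosome 5, 87409942 to 87424203) was the scarcest of the 9. It had 1.62, 0.617, 0.331 and 1.39 CPM in diet-alcohol libraries 35, 45, 65 and 71, from 82 counts in all, and 4.93, 18.4, 7.07 and 5.66 CPM in DSS libraries 15, 48, 49 and 50, from 439 counts. The groups were apart, and DSS 48 was far above the other 3 DSS libraries. Ugt2b38 was 8.82-fold lower (log2 fold change -3.14 ± 0.57, SE); without DSS 48 the log2 fold change was -2.53 and the call was lost, as it was without diet-alcohol 45 (-2.95) or DSS 49 (-3.26).

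Ugt2b5 (ENSMUSG00000054630, chromosome 5, 87124960 to 87140318) was the most abundant UGT transcript. It had 175, 62.7, 59.2 and 109 CPM in diet-alcohol libraries 35, 45, 65 and 71, and 183, 436, 408 and 330 CPM in DSS libraries 15, 48, 49 and 50. The groups did not overlap, but library 35 and DSS 15 lay side by side. The log2 fold change was -1.74 ± 0.39 (SE), short of the threshold, and -2.14 without library 35, where it passed. It also passed without DSS 15, with no filter and in DESeq2.

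Ugt2b36 (ENSMUSG00000070704, chromosome 5, 87065927 to 87092555) had 88.8, 49.1, 45.4 and 64.3 CPM in diet-alcohol libraries 35, 45, 65 and 71, and 88.7, 189, 198 and 182 CPM in DSS libraries 15, 48, 49 and 50. Library 35 and DSS 15 had nearly the same value, and the other 6 libraries were apart by group. The log2 fold change was -1.41 ± 0.31 (SE), or -1.63 without library 35, where it passed; it passed too without DSS 15, with no filter and in DESeq2.

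Ugt2b34 (ENSMUSG00000029260, chromosome 5, 86889767 to 86906937) had 122, 39.6, 23.0 and 61.2 CPM in diet-alcohol libraries 35, 45, 65 and 71, and 58.4, 161, 141 and 124.7 CPM in DSS libraries 15, 48, 49 and 50. Its log2 fold change was -0.98 ± 0.47 (SE), with the groups overlapping through library 35 and DSS 15. Ugt2b35 (ENSMUSG00000035811, chromosome 5, 87000860 to 87013275), the only one of the 7 on the forward strand, had 54.0, 14.98, 11.04 and 15.3 CPM in diet-alcohol libraries 35, 45, 65 and 71, against 21.2, 53.2, 44.7 and 43.1 CPM in DSS libraries 15, 48, 49 and 50. Library 35 held the highest value of all 8, and the log2 fold change was -0.76 ± 0.48 (SE). Without library 35 it was -1.55, past the threshold.

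**Figure D2:**
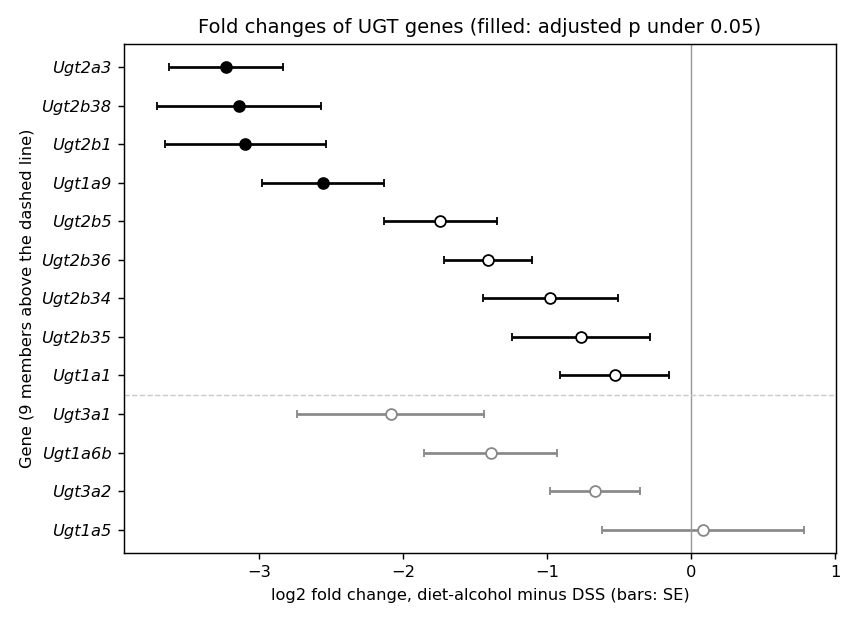
Log2 fold changes (diet-alcohol minus DSS) with SE bars from the fit across all genes, for the 9 UGT genes described (black, above the dashed line) and 4 other UGT genes tested (grey); filled points passed an adjusted p of 0.05. The values run from -3.23 for Ugt2a3 to -0.53 for Ugt1a1 among the 9, and Ugt1a5 is the only point right of 0.

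The shift between libraries was shared by most of the genes. In the diet-alcohol group, library 35 held the highest value of 8 of the 9 genes, Ugt2a3 being the exception, where it held the lowest; library 65 held the lowest of 6. In the DSS group, DSS 15 held the lowest value of 8 genes, and DSS 48 and DSS 49 the highest of 5 and 4. Over the 36 pairs of the 9 genes, Pearson's r of log2(CPM + 1) across the 8 libraries ran from 0.50 to 0.99 with a median of 0.86; these values share library scaling and the group difference and are given as a description.

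**Figure D3:**
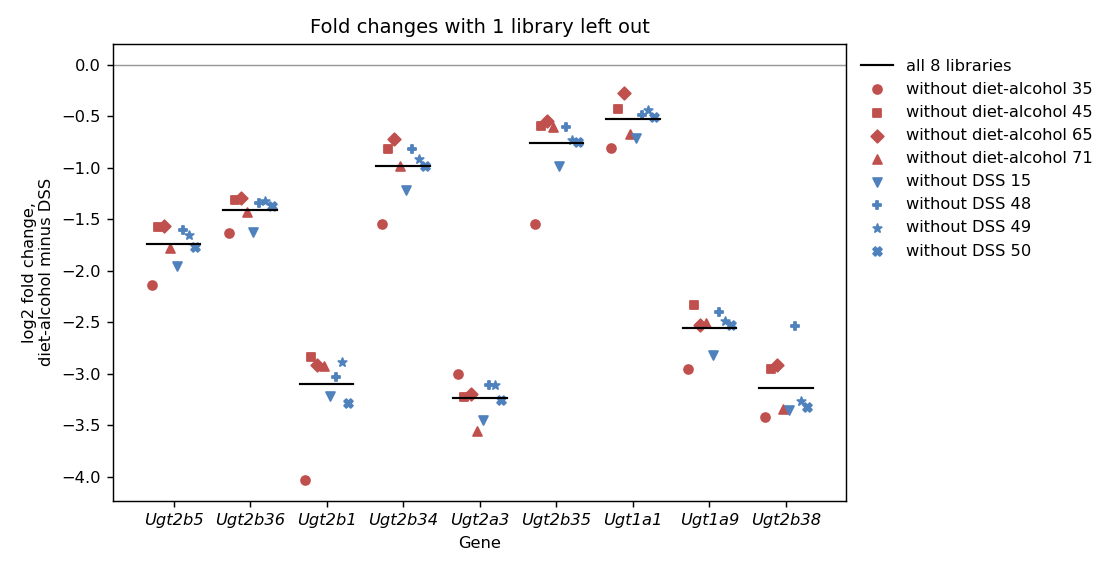
Log2 fold changes of the 9 UGT genes with all 8 libraries (black lines) and with each library left out in turn (red, a diet-alcohol library left out; blue, a DSS library left out). All points lie below 0, and the point without library 35 is the lowest for every gene except Ugt2a3, reaching -4.03 for Ugt2b1.

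Set per length, as the authors' FPKM values (fragments scaled by gene length and library size), the order of the genes differed between the groups. In the diet-alcohol group Ugt2b5 led with 53.3 ± 27.9 FPKM (SD, n = 4), followed by Ugt2b36 with 29.4 ± 9.12 and Ugt2b34 with 13.9 ± 9.69; each of the 3 was above the next in all 4 libraries. Below them Ugt1a1 (7.70), Ugt2b1 (6.95), Ugt2b35 (6.92) and Ugt2a3 (5.22) changed places between libraries, with the first above Ugt2b1 in 2 of 4. In the DSS group Ugt2b5 led with 179 ± 59.2 FPKM (SD, n = 4), followed by Ugt2b36 (78.2), Ugt2b1 (59.7) and Ugt2a3 (49.2). There Ugt2b36 was above Ugt2b1 in 3 of 4 libraries, and Ugt2b1 above Ugt2a3 in 3 of 4.

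Ugt2b34 held rank 3 of the 10 in every diet-alcohol library and rank 5 in every DSS library. Ugt2b35, Ugt1a1 and Ugt1a9 had 11.8, 11.2 and 10.9 FPKM in the DSS group and were not ordered alike in its libraries. Ugt2b38 was at 0.510 FPKM in the diet-alcohol group and 4.67 FPKM in the DSS group, and Ugt1a6a at 0.0367 and 0.0466 FPKM. Lengths of Ugt1a genes include the shared exons, so their level per length is a lower reading if those reads were not assigned to a single gene.

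The make-up of the summed UGT level also differed. Ugt2b1 and Ugt2a3 together, a pair chosen after their values were seen, made up 9.14, 9.30, 11.7 and 9.61% of the summed FPKM of the 10 genes in diet-alcohol libraries 35, 45, 65 and 71. They made up 29.3, 24.2, 27.9 and 20.6% in DSS libraries 15, 48, 49 and 50. The diet-alcohol libraries, library 35 included, sat within a narrow band well under the DSS libraries. Within the pair, library 35 differed from its group: it had 1.202% Ugt2a3, where the other 3 had 6.06 to 6.48%, and 7.94% Ugt2b1, where they had 3.24 to 5.22%.

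Ugt2b5 took 41.9% ± 2.20 in the diet-alcohol group and 41.2% ± 1.46 in the DSS group (SD, n = 4 each), with overlap. Ugt1a1 made up 6.08% ± 1.57 and 2.65% ± 0.289, Ugt2b34 10.3% ± 2.48 and 6.27% ± 0.672, and Ugt2b35 5.05% ± 1.71 and 2.72% ± 0.279 (diet-alcohol and DSS; SD, n = 4 each), without overlap between the groups. Ugt1a1, Ugt1a6a and Ugt1a9, the Ugt1a genes among those described, together took 7.65% ± 1.14 in the diet-alcohol group and 5.14% ± 0.468 in the DSS group. Within them Ugt1a9 went the other way, at 1.53% ± 0.499 in the diet-alcohol group and 2.47% ± 0.415 in the DSS group, with overlap. Shares add up to a fixed whole, so a larger share of some genes goes with smaller ones of others.

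**Figure D4:**
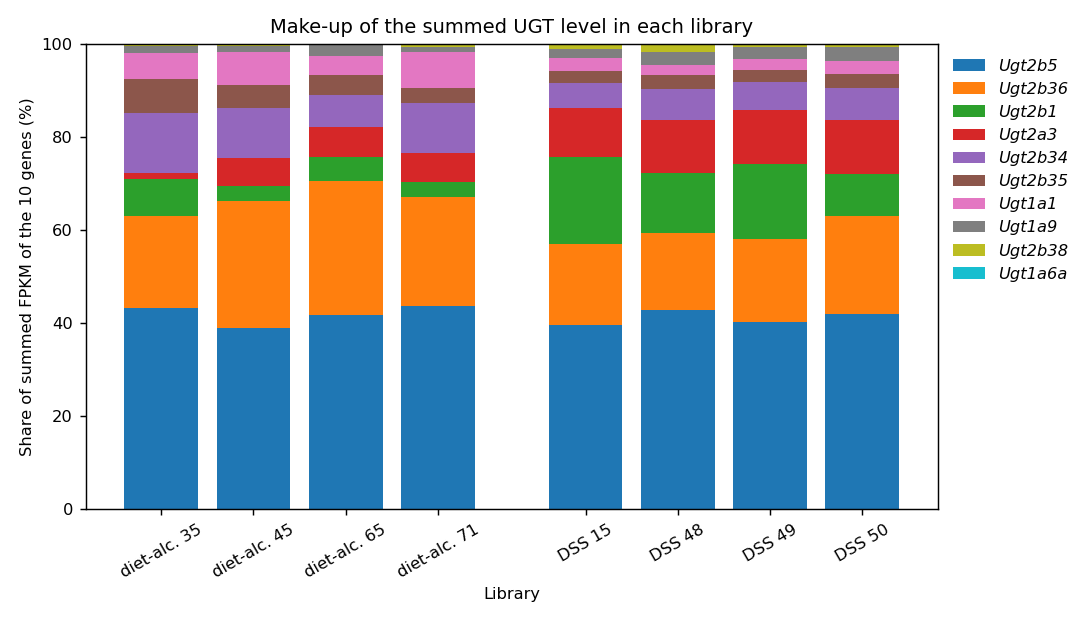
Share of each of the 10 genes in their summed FPKM, per library (diet-alcohol left, DSS right). Ugt2b5 takes 38.8 to 43.7% in every library, while Ugt2b1 and Ugt2a3 (green and red) take 9.14 to 11.7% in the diet-alcohol libraries and 20.6 to 29.3% in the DSS libraries.

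Genes of the Ugt2 cluster did not all differ between the groups by the same amount. Ugt2b34 and Ugt2b1 lie next to each other, 9.70 kb apart and on the same strand. The ratio of Ugt2b1 to Ugt2b34 counts was 0.365, 0.183, 0.447 and 0.185 in diet-alcohol libraries 35, 45, 65 and 71, and 2.06, 1.12, 1.61 and 0.796 in DSS libraries 15, 48, 49 and 50. Ugt2b1 was below Ugt2b34 in all 4 diet-alcohol libraries and in DSS 50, and above it in the other 3 DSS libraries. Ugt2a3 and Ugt2b36 are not neighbours, as Ugt2b5 and Ugt2b37 lie between them. The ratio of Ugt2a3 to Ugt2b36 counts ran from 0.0624 to 0.280 in the diet-alcohol group and from 0.566 to 0.702 in the DSS group. Some genes side by side had closer log2 fold changes. They were -1.41 and -1.74 for Ugt2b36 and Ugt2b5, and -3.23 and -3.14 for Ugt2a3 and Ugt2b38. These pairs were chosen after the values were seen.

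Other genes beside the clusters were tested independently of the choice of the 10. Within 500 kb of the Ugt2 cluster, 3 other genes were tested, Ythdc1 and the sulfotransferase genes Sult1b1 and Sult1d1, with log2 fold changes of -0.09 to 0.32, and none passed (lowest edgeR adjusted p = 0.855). Sult1e1, another sulfotransferase gene in this window, did not pass the filter on low counts and was picked out after its values were seen. It had 411 counts in the diet-alcohol group and 0 in the DSS group, and DESeq2, run without that filter, called it higher. Within 500 kb of the Ugt1a locus, 9 other genes were tested, with log2 fold changes of -0.63 to 0.54 and none past the threshold (lowest edgeR adjusted p = 0.542).

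**Figure D5:**
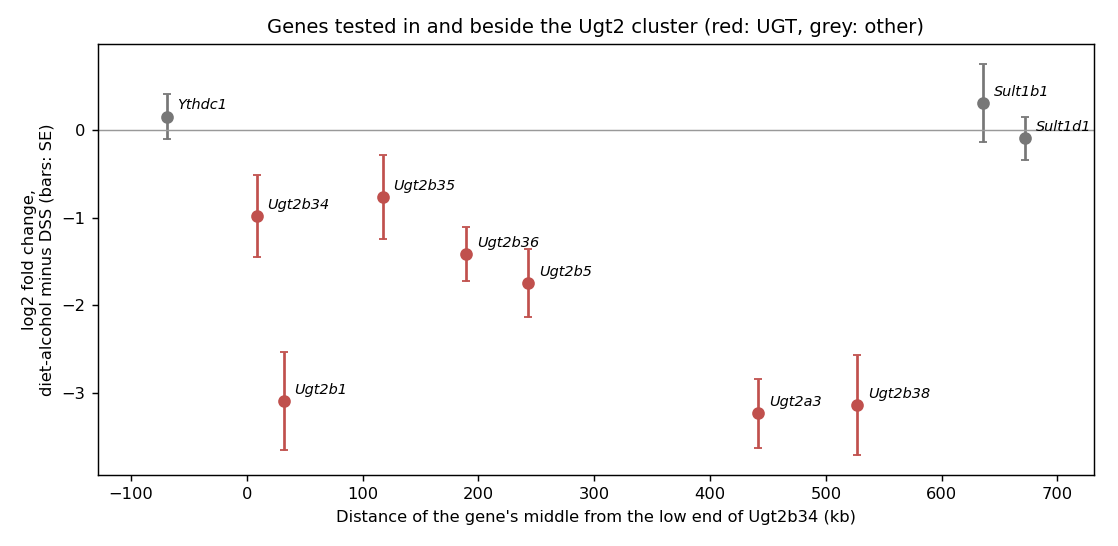
Log2 fold change (diet-alcohol minus DSS, SE bars) of each gene tested in and beside the Ugt2 cluster against the distance of its middle from the low end of Ugt2b34, in kb (red, UGT genes; grey, others). Ugt2b1, at -3.10, sits between Ugt2b34 at -0.98 and Ugt2b35 at -0.76, and the 3 tested genes outside the cluster are near 0. Sult1e1 and Ugt2b37, which had counts but did not pass the filter on low counts, are not shown.

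The remaining 12 UGT genes gave 4 that could be tested, and 0 passed in edgeR. At an unadjusted edgeR p under 0.05, 2 were lower, and DESeq2 called 1 of the 4 lower, Ugt3a1. Over all 11729 tested genes, 671 were lower and 697 higher at that unadjusted p. DESeq2 called 236 lower and 195 higher of 20694. The 4 were Ugt3a1 (log2 fold change -2.09 ± 0.65, SE, edgeR adjusted p = 0.185), Ugt1a6b, Ugt3a2 (-0.67, adjusted p = 0.441) and Ugt1a5 (0.08, adjusted p = 0.980). Human UGT3 enzymes use other sugars than glucuronic acid. Ugt1a5 had a negative value with the mitochondrial covariate and without library 71, DSS 15 or DSS 50. Ugt2b37, which lies between Ugt2b5 and Ugt2a3 and was picked out after its values were seen, did not pass the filter: it had 1, 2, 1 and 1 counts in diet-alcohol libraries 35, 45, 65 and 71, and 55, 40, 21 and 4 counts in DSS libraries 15, 48, 49 and 50, and DESeq2, run without that filter, called it lower. Ugt1a2, Ugt2a1 and Ugt2a2 had no count in any library.

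Genes that supply or use glucuronic acid were mostly not past the threshold. Of 14 tested, 1 fell, Ces1e, which encodes egasyn, a carboxylesterase that holds beta-glucuronidase in the endoplasmic reticulum, and 0 rose (0 higher at an unadjusted p under 0.05 and 0 in DESeq2). Ces1e had 10.9, 12.1, 4.64 and 13.1 CPM in diet-alcohol libraries 35, 45, 65 and 71, and 18.4, 54.4, 49.6 and 43.8 CPM in DSS libraries 15, 48, 49 and 50. The groups were apart, and the difference was -2.02 ± 0.39 on the log2 scale (SE), at an edgeR adjusted p of 0.0279. Left out singly, diet-alcohol 45 and DSS 48, 49 and 50 each ended the call (edgeR adjusted p at most 0.118) at log2 fold changes of -2.11 to -1.85, as did the mitochondrial covariate (adjusted p = 0.0935) at -2.54.

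Ugdh, which makes UDP-glucuronic acid, had 62.5, 23.6, 14.1 and 52.3 CPM in diet-alcohol libraries 35, 45, 65 and 71, against 25.9, 22.9, 21.0 and 19.5 CPM in DSS libraries 15, 48, 49 and 50. Its groups overlapped, and the log2 fold change was 0.77 ± 0.40 (SE; edgeR adjusted p = 0.501), or 0.43 without library 35 and 0.01 with the mitochondrial covariate. Slc35b1, from a family of nucleotide-sugar transporters, stood at 0.76 (adjusted p = 0.444) and Rgn, the gluconolactonase of vitamin C synthesis, at -0.88 (adjusted p = 0.154). The median of the 14 was 0.03.

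None of the 18 tested regulators of UGT genes passed in edgeR. At an unadjusted p under 0.05, 1 was higher and 2 were lower, against 697 and 671 of all 11729 tested genes. DESeq2 called 1 of the 18 higher, against 195 of 20694 genes. Ahr, the aryl hydrocarbon receptor, which activates Ugt1a genes, had 9.68, 11.9, 15.8 and 16.9 CPM in diet-alcohol libraries 35, 45, 65 and 71, and 6.24, 6.10, 5.99 and 2.83 CPM in DSS libraries 15, 48, 49 and 50. The groups did not overlap (log2 fold change 1.34 ± 0.31, SE, edgeR adjusted p = 0.0653). The value passed under only 3 of 14 alternatives, namely without library 35 (1.47), with no filter (adjusted p = 0.0224) and in DESeq2 (0.00940). Over the alternatives its adjusted p was at most 0.222. Cebpa, a transcription factor of hepatocytes, went the other way without overlap, at -0.92 (edgeR adjusted p = 0.171). It had 47.4 to 121 CPM in the diet-alcohol group and 158 to 186 CPM in the DSS group. Nr1i2, the pregnane X receptor, stood at -0.61 (adjusted p = 0.297), and Nr1h4, the bile acid receptor FXR, at 0.50 (adjusted p = 0.434).

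Sulfonation is the other main conjugation of steroids and phenols in liver. Of 8 tested genes of that list 1 fell, Sult2a8, which sulfonates bile acids in mouse liver, and 0 rose in edgeR (0 higher at an unadjusted p under 0.05, and none of the 8 higher in DESeq2). Sult2a8 had 80.5, 75.7, 50.3 and 75.3 CPM in diet-alcohol libraries 35, 45, 65 and 71, and 208, 240.2, 286 and 168.6 CPM in DSS libraries 15, 48, 49 and 50. The groups were far apart, and the difference of -1.68 ± 0.24 on the log2 scale (SE), at an edgeR adjusted p of 0.00663, stayed past the threshold under all 14 alternatives (largest adjusted p, 0.0376). Papss2, which makes the sulfate donor, stood at -0.72 (adjusted p = 0.382) and Sult5a1 at -0.49 (adjusted p = 0.715). Sult1a1, for phenols, stood at 0.82 (adjusted p = 0.589) and at -0.05 without library 35.

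Of the same list, Sult1e1, the estrogen sulfotransferase, did not pass the filter. Picked out after its values were seen, it had 70, 285, 3 and 53 counts in diet-alcohol libraries 35, 45, 65 and 71 and 0 counts in all 4 DSS libraries. DESeq2, run without that filter, called it higher.

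Of 13 tested genes of bilirubin formation and glucuronide transport, 1 fell, the organic anion carrier gene Slco1a1 (4.39 ± 3.19 CPM in the diet-alcohol group and 48.9 ± 21.5 CPM in the DSS group, SD, n = 4 each; edgeR adjusted p = 0.00514). Its log2 fold change was -3.52 ± 0.48 (SE), or -4.12 without library 65, and it was called under all 14 alternatives. None rose in edgeR, and DESeq2 called 0 higher. At an unadjusted p under 0.05, 3 of the 13 were higher, against 697 of all 11729 tested genes. These 3 were Blvra and Blvrb, the biliverdin reductases (0.88 and 0.47; adjusted p = 0.179 and 0.377), and Hmox1, the inducible heme oxygenase that opens the heme ring (0.72; adjusted p = 0.358).

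Among 4173 other genes with a mean of at least 10 CPM, the 5 whose log2(CPM + 1) followed the summed UGT level most closely over the 8 libraries were Ces1d, Ephx1, Aplp2, Aadac and Ces1g, with Pearson's r of 0.970 to 0.986. Ephx1 encodes microsomal epoxide hydrolase, Ces1d and Ces1g carboxylesterases and Aadac arylacetamide deacetylase. With the group means taken off, their r ran from 0.885 to 0.952 and they ranked 17 to 100; without library 35 they ranked 8 to 27. The libraries share depth and the group difference, so these values are a description.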

How the data were processed

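The deposited table gives, per the file headers, the authors' raw counts per gene for 8 liver libraries, FPKM values, and a comparison with log2 fold changes (diet-alcohol over DSS) and p-values. The authors' FPKM were checked to be counts per length scaled by the DESeq2 size factor. Total RNA was purified with an RNeasy kit and made into SMARTer mRNA libraries, per the labels' protocols; the submitters' processing notes name GRCm38 and mm10. For the aligner, counter and strand, no statement was found: not given in the sources used here. Depth was 12502300 to 16967839 counts per library.

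Counts were filtered with filterByExpr (11729 of 54532 genes left), TMM-normalized and tested with edgeR 4.0.16 (quasi-likelihood, robust, R 4.3.3), Benjamini-Hochberg over all genes tested, threshold 0.05; a standard error is the log2 fold change over the root of F. CPM use TMM-scaled library sizes. Alternatives were DESeq2 1.42.0 (all genes with more than 1 count, 20694), RLE factors, other filters, mitochondrial genes left out, mitochondrial share as covariate, a threshold of 0.01, and each library left out. The 10 genes, the lists of related genes and the alternatives were chosen with earlier results of these data known. Of each list, genes past the threshold and otherwise up to 4 with the smallest p are named. No sequence is shown.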

Additional observations from a re-analysis of the deposited data

Results flagged for a closer look

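In 4 of the 20 sets of 4 libraries tested (10 genes, both groups), 1 library lay far from the other 3 by Dixon's criterion, which chance meets in about 1 set in 20 where values are normally distributed. The criterion was applied to CPM without a log. The genes share the same libraries and vary together, so the sets are not independent and the 2 rates cannot be compared directly. Ugt2b1 had 44.5 CPM in diet-alcohol library 35, with the next at 11.3 CPM. Ugt2b35 had 54.0 CPM in diet-alcohol library 35, with the next at 15.3 CPM. Ugt2b36 had 88.7 CPM in DSS 15, with the next at 182 CPM. Ugt2b38 had 18.4 CPM in DSS 48, with the next at 7.07 CPM.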

How the results depend on the processing

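All 126 values of the 9 UGT genes under the 14 alternatives that gave a fold change were negative, and their median ran from -2.14 (without library 35) to -1.56 (without library 65). The number of the 9 called lower was 4; it was 2 with the mitochondrial covariate, 1 at a threshold of 0.01, and from 1 to 7 with 1 library left out. Over all genes, 148 of 11729 were called in either direction, 55 with the covariate and 61 at a threshold of 0.01. With 1 library left out it was from 58 of 12037 to 308 of 12097. Related genes called lower numbered 3 of 57; they were 5 in DESeq2, which also tested genes the filter removed and added Ugt3a1 and Ugt2b37, and from 2 to 6 with 1 library left out. Related genes called higher numbered 0; they were 2 in DESeq2 (Ahr and Sult1e1), 1 with no filter on low counts, and from 0 to 2 with 1 library left out. Ugt1a5, at 0.08, was -0.79 with the covariate and from -0.46 to 0.41 with 1 library left out; Sult1a1, at 0.82, ran from -0.052 to 1.10. The causes were not tested. No paired analysis was possible because the groups share no library number. Nuclear depth, down to 2722757 counts, limits the scarce genes Ugt1a6a and Ugt2b38 most.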
